A study of Mus musculus with 2 samples.

Results

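The genes examined here are 10 immediate early and dissociation response genes, Fos, Fosb, Jun, Junb, Jund, Egr1, Ier2, Atf3, Dusp1 and Zfp36, chosen by symbol from the 32285 genes of the deposited matrices. All 10 were present, and all 10 were among the 12590 genes that held at least 100 transcript counts (unique molecular identifiers, UMIs) in both libraries together. The data are droplet single cell RNA sequencing of palatal gingiva from female C57BL/6 mice (C57Bl6/J in the treatment notes), 8 to 12 weeks old. In the CpG ODN group the palate received 3 µl of a TLR9 ligand at 1 µg/ml for 1 h under an oral appliance, and in the LPS group it received the TLR2/4 ligand P. gingivalis LPS in the same way. No untreated library was analysed here, so both groups had been handled, covered and stimulated. Gingiva was taken on day 4, digested with collagenase II for 20 min and then with trypsin for 30 min, both at 37 °C, and 2000 to 3000 cells from each of 4 mice were pooled into 1 library per ligand. Cells were not traced to a mouse, so there is no replicate and no test between the ligands. The comparison asked whether the 10 genes differed between the libraries to a like extent in every cell type or to different extents.

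Immediate early genes are transcribed within minutes of a stimulus from factors already present in the cell, and most of their mRNAs are short-lived. FOS proteins (Fos, Fosb) pair with JUN proteins (Jun, Junb, Jund) to form the AP-1 transcription factor, and Atf3, a stress-induced factor of the ATF/CREB family, can pair with JUN proteins. Egr1 is a zinc finger transcription factor, Ier2 a nuclear immediate early protein, Dusp1 a phosphatase that switches off MAP kinases, and Zfp36 an RNA-binding protein that shortens the life of cytokine mRNAs. The same genes are known to be induced when tissue is cut and digested warm, so their mRNA in isolated cells can come from the tissue or from its preparation. The levels before digestion were not measured.

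The CpG ODN library held 6219 barcodes and 72173148 UMIs, and the LPS library 2016 barcodes and 38656738 UMIs. A cell had to show 800 or more detected genes, which left 4888 cells of the CpG ODN and 1277 of the LPS library, with 11077.5 and 22680 median UMIs. The median share of mitochondrial UMIs was 4.85% and 5.37%. A single cell barcode occurred in both sets of cells. Cells were grouped without the 10 genes and without related stress lists, and groups were named from marker genes. The 6 classes with at least 20 cells in each library were epithelial (3778 and 1015 cells after CpG ODN and LPS), fibroblast (270 and 67), mural, the contractile cells of vessel walls (69 and 21), endothelial (49 and 24), B cell (284 and 69) and T cell (80 and 26). Each class carried its own markers in both libraries. Levels are given as counts per 1000000 UMIs of a class (CPM), and the ratio is always CpG ODN over LPS. Ranges after a ratio are exact 95% intervals for counting error alone, and they do not include the variation between mice. Because a UMI stands for 1 captured transcript, CPM values were not divided by gene length, and each gene was compared with itself between classes and ligands.

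Promoters were available for 8 of the 10 genes in the RefSeq table (GRCm38.p6), from 250 bases before to 50 bases after the start. Ier2 and Egr1 are named only. Both strands were searched for the cAMP response element TGACGTCA, its core TGACG, the AP-1 site TGANTCA, the CArG box bound by serum response factor, and the TATA motif TATAAA. The core was in 5 of the 8 (Fos, Fosb, Junb, Atf3 and Dusp1) against 20.8% of all 32851 promoters, and the full element, which contains the core, was in Dusp1 alone against 1.79% of all. A CArG box was in Zfp36 (1.63% of all promoters) and TATAAA in Fos and Junb (13.6%). The AP-1 site, held by 7.81% of all promoters, was in none of the 8. The 3 promoters below belong to genes whose levels moved together between cells, as described further on, and capitals mark the named motifs. In Fos (chr12:85473640-85473939, + strand) the cores begin 129 and 66 bases and the TATA motif 33 bases before the start. In Dusp1 (chr17:26508423-26508722, - strand) a core begins 191 bases and the full element 143 bases before it. In Zfp36 (chr7:28379179-28379478, - strand) the CArG box begins 58 bases before it. These are RefSeq starts, and they lie 0, 53656 and 1025 bases from the 5′ ends of the GENCODE gene spans given with the levels of Fos, Dusp1 and Zfp36.
Fos: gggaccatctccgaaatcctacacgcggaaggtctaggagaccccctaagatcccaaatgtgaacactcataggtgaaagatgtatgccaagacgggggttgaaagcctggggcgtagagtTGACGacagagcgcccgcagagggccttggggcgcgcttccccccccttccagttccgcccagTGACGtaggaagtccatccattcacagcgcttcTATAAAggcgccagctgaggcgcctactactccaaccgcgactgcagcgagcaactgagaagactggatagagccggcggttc
Dusp1: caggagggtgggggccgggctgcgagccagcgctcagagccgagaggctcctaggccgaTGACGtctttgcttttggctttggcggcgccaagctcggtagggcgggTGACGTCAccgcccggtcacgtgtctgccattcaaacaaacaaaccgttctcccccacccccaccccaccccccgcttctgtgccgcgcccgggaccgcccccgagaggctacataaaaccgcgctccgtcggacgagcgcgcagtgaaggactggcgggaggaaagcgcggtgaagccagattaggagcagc
Zfp36: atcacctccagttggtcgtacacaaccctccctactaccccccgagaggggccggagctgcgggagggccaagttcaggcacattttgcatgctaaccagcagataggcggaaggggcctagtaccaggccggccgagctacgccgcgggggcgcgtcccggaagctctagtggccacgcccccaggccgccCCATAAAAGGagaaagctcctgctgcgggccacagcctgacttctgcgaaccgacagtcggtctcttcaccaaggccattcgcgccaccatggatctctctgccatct

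Most of the genes are short. In the GENCODE annotation (GRCm38) the shortest is Ier2, which spans 1522 bases (chr8:84661331-84662852), and 8 of the 10 were shorter than 19320 bases, the median of 19953 protein-coding genes with a 3′ UTR of at least 100 bases. Dusp1, at 56539 bases, and Atf3, at 47744 bases, were longer as whole GENCODE spans. The RefSeq starts used for their promoters lie 53656 and 34706 bases inside these spans, so both lengths depend on the start taken. Jun, Junb, Jund and Ier2 have 1 exon in every coding transcript, which 3.79% of all these genes share. The pentamer ATTTA, the core of AU-rich elements that mark short-lived mRNAs, occurred in the 3′ UTR of 9 of the 10, all but Ier2. The share of all protein-coding genes that hold the pentamer was not counted, so the 9 have no background. The median density of the pentamer was 2.88 per kilobase over the 10 genes and 1.35 per kilobase over all protein-coding genes. Dusp1 had the highest density of the 10, 5.77 per kilobase.

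Over all cells of a library the 10 genes were at nearly the same level after both ligands. Together they took 7010 CPM after CpG ODN and 7284 CPM after LPS, a ratio of 0.962 (0.958 to 0.967). The ratios of single genes ran from 0.889 for Jund to 1.08 for Ier2. Ier2 alone was above 1, and 9 genes were below 1. The counting interval lay below 1 for 6 genes, above 1 for Ier2 and held 1 for the other 3. The share of all genes with such intervals was not counted. At counts this high a small difference is enough, as for the housekeeping gene Actb at 0.948 (0.941 to 0.955). None of the 10 passed 1.5-fold in either direction, while of all genes tested 4.08% were at least 1.5-fold higher and 5.55% at least 1.5-fold lower after CpG ODN. The median log2 ratio was -0.05 over the 10 genes and 0.0001 over all genes tested. By depth of the cell, the summed ratio was 1.31 under 5000 UMIs, 0.489 from 5000 to 10000, 1.07 from 10000 to 20000, 1.14 from 20000 to 40000 and 1.09 above. The mix of cell types changed with depth too. Epithelial cells made up 136 of 881 cells after CpG ODN and 13 of 131 after LPS in the first of these ranges. From 5000 to 10000 UMIs, where the ratio was 0.489, they made up 1006 of 1235 and 38 of 114, so the libraries differed in mix there. From 10000 to 20000 UMIs they made up 1599 of 1688 and 275 of 309.

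The level differed far more between cell types than between ligands. Mural cells had the highest summed level, 23012 CPM after CpG ODN and 20437 CPM after LPS. Fibroblasts followed with 18264 and 15245 CPM, and endothelial cells with 16519 and 12658 CPM. Epithelial cells held 6878 and 7013 CPM. B cells held 2721 and 4286 CPM and T cells 2739 and 4671 CPM, and their intervals overlapped each other in both libraries. The 6 classes spanned 8.46-fold after CpG ODN and 4.77-fold after LPS. Class and depth went together, since median UMIs after CpG ODN were 13040.5 in epithelial cells, 3863.5 in fibroblasts and 2149.5 in B cells, and the part of depth in the class levels was not tested.

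Within a class, single cells were spread widely. The summed level of the median epithelial cell was 41.7 UMIs per 10000 after CpG ODN and 46.0 after LPS, and the quartiles were 14.6 and 96.9 after CpG ODN and 14.1 and 102 after LPS. The median mural cell held 215 and 228 UMIs per 10000, and the median fibroblast 174 and 142. The median B cell held 21.6 and 30.0, and the median T cell 17.9 and 31.6. The boxes of the 2 libraries overlapped in every class.

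**Figure D1:**
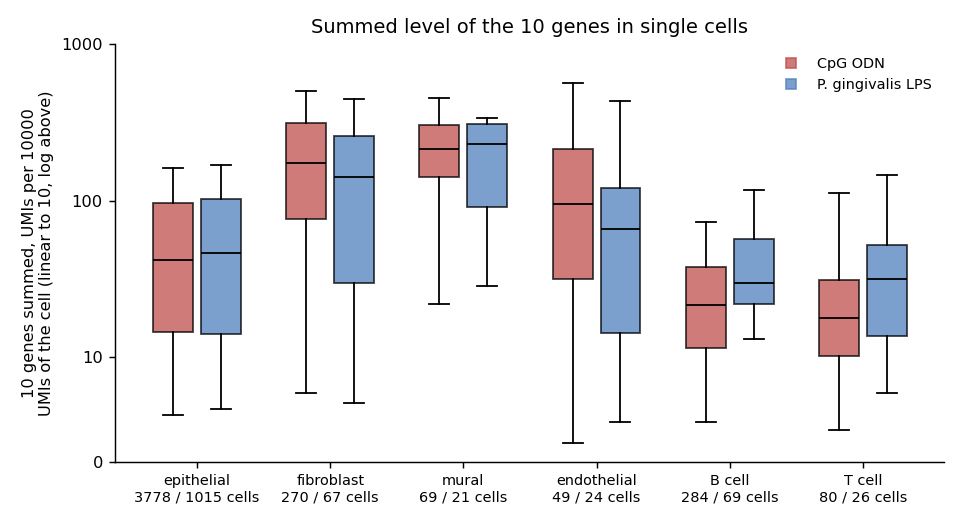
Summed level of the 10 genes per cell, as UMIs per 10000 UMIs of the cell (linear to 10 and logarithmic above), for 6 cell classes and both ligands. The line in a box is the median, the box the quartiles and the whiskers the 5th and 95th percentiles; mural and fibroblast cells lie highest, B and T cells lowest, and the boxes of both ligands overlap in each class.

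Of the FOS genes, Fos (chr12:85473890-85477273) was highest in mural cells, at 5545 CPM (Poisson interval 5303 to 5794) after CpG ODN and 4266 CPM (4000 to 4544) after LPS. Fibroblasts held 4686 and 3609 CPM of Fos, endothelial cells 4342 and 2834, and epithelial cells 1362 in each library. In B cells Fos was at 72.3 and 59.1 CPM. The span of Fos from mural to B cells was 76.7-fold after CpG ODN and 72.2-fold after LPS. Fosb (chr7:19302696-19310051) was instead highest in fibroblasts, at 2197 CPM after CpG ODN and 2223 CPM after LPS, against 1105 and 1149 CPM in mural cells. Fibroblasts drew 12.0% and 14.6% of their UMIs of the 10 genes from Fosb, and epithelial cells 4.35% and 4.43%. In lymphocytes Fosb was at 69.3 and 122 CPM in B cells and 103 and 229 CPM in T cells.

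Of the JUN genes, Jun (chr4:95049034-95052222) was at 2042 CPM in endothelial cells after CpG ODN and 1212 CPM after LPS. It was at 1990 and 1729 CPM in fibroblasts, 1676 and 2017 CPM in mural cells and 1439 and 1407 CPM in epithelial cells. These 4 classes thus lay close together for Jun, whereas B cells held 79.7 and 127 CPM. Junb (chr8:84974484-84978718) was highest in mural cells, at 3318 and 3086 CPM, and reached 1084 and 1180 CPM in T cells, where it made up 39.6% of the UMIs of the 10 genes after CpG ODN and 25.3% after LPS. Jund (chr8:70698949-70700616) had the most even level of the 10 genes. Its 6 class levels spanned 2.70-fold after CpG ODN and 2.96-fold after LPS, from 759 and 852 CPM in epithelial cells to 2052 CPM in fibroblasts after CpG ODN and 2521 CPM in B cells after LPS. Jund alone made up 50.4% and 58.8% of the UMIs of the 10 genes in B cells.

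Egr1 (chr18:34859823-34864984) had the same 4 highest classes as Fos, in the same order after CpG ODN, while after LPS endothelial cells lay just above fibroblasts. It was at 3802 and 3673 CPM in mural cells, 2327 and 1845 CPM in fibroblasts, 2011 and 1904 CPM in endothelial cells and 502 and 497 CPM in epithelial cells. T cells held 4 and 5 UMIs of Egr1 in all, 15.8 and 35.8 CPM, and B cells 162 and 122 CPM. Ier2 was at 1665 and 1443 CPM in mural cells, and in the other classes between 182 and 789 CPM after CpG ODN and between 315 and 553 CPM after LPS.

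Atf3 (chr1:191170296-191218039) was the gene most sharply divided between classes. Mural cells held 2123 CPM after CpG ODN and 1456 CPM after LPS, endothelial cells 892 and 465, fibroblasts 478 and 560 and epithelial cells 451 and 440. In B cells Atf3 had 4 UMIs after CpG ODN (5.90 CPM, 1.61 to 15.1) and 0 UMIs after LPS, which allows a level of up to 12.7 CPM. At least 1 UMI of Atf3 was found in 56.7% and 66.9% of epithelial cells, against 1.41% of B cells after CpG ODN and 0 of 69 after LPS. Thinned to 1500 UMIs per cell, the epithelial shares were 28.6% and 30.5% and the B cell share after CpG ODN 0.861%.

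Of the feedback genes, Dusp1 (chr17:26505590-26562128) was at 849 and 707 CPM in fibroblasts, 814 and 352 CPM in mural cells, 661 and 509 CPM in endothelial cells and 504 and 527 CPM in epithelial cells. B cells held 26.6 and 33.8 CPM of it. Zfp36 (chr7:28376784-28380253) was highest in mural cells after CpG ODN, at 1178 CPM, and in endothelial cells after LPS, at 1312 CPM, where 2 of the 24 cells held 51.5% of its UMIs, with 398 and 437 CPM in epithelial cells. Both genes were lowest in lymphocytes, as were Fos, Fosb and Jun.

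**Figure D2:**
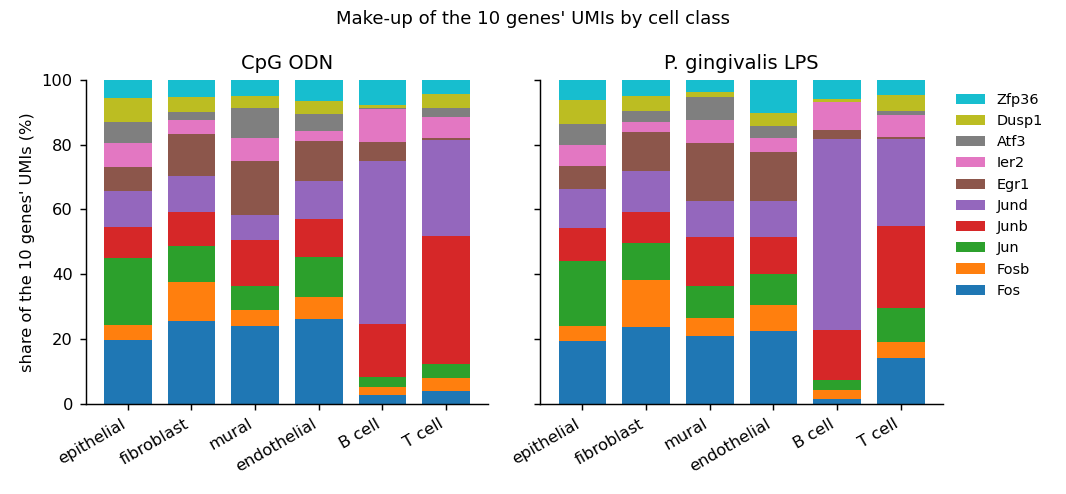
Share of each gene (colours) in the UMIs of the 10 genes, in percent, for 6 cell classes in the CpG ODN library (left) and the LPS library (right). Jund makes up 50.4% and 58.8% in B cells and Junb 39.6% and 25.3% in T cells, while Fos makes up 19.8% and 19.4% in epithelial cells and 2.66% and 1.38% in B cells.

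The ligand ratio of the summed level was above 1 in 3 of the 6 classes and below 1 in the other 3. It was 0.981 (0.976 to 0.986) in epithelial cells, 1.20 (1.17 to 1.23) in fibroblasts, 1.13 (1.09 to 1.17) in mural cells and 1.30 (1.24 to 1.38) in endothelial cells. It was 0.635 (0.588 to 0.686) in B cells and 0.586 (0.526 to 0.654) in T cells. No interval held 1, but these intervals leave out the variation between cells and mice. In T cells a single LPS cell held 23.4% of the UMIs of the 10 genes. The heat shock list had summed ratios of 1.06 in epithelial cells, 0.972 in fibroblasts, 1.05 in mural cells, 1.19 in endothelial cells, 1.07 in B cells and 1.03 in T cells. Its most abundant genes over all cells after CpG ODN were Hspb1 (2418 CPM), Hsp90ab1 (2055 CPM) and Hspa8 (1306 CPM). The inducible genes Hspa1a and Hspa1b were at ratios of 0.686 and 0.868 in epithelial cells and 1.05 and 1.03 in fibroblasts. In the other classes both held under 100 UMIs and were not compared. With 1 library per ligand, the ligand, the mice, the day of handling and the mix of cells inside a class cannot be told apart.

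In epithelial cells none of the 10 genes passed 1.5-fold, against 0.892% of genes higher and 4.48% lower. Fos was equal in both libraries (ratio 1.00, 0.989 to 1.01), Ier2 was the highest at 1.11 and Jund the lowest at 0.891. In fibroblasts, 8 of the 10 genes were above 1, with a median log2 ratio of 0.30 against 0.006 over all genes tested there. The share of all genes above 1 was not counted in this class or the others. Ier2 alone passed 1.5-fold, at 1.78 (1.54 to 2.06), with 6.51% of genes higher and 4.75% lower as background. Fibroblast Junb followed at 1.34, Fos and Zfp36 at 1.30 and Egr1 at 1.26, while Fosb was at 0.989 and Atf3 at 0.853. The median fibroblast held 31.1 UMIs of Fos per 10000 after CpG ODN and 14.9 after LPS. Epithelial markers were at 9444 CPM in fibroblasts after CpG ODN and at 4462 CPM after LPS, and in the 259 and 62 fibroblasts with under 1% of such UMIs the summed ratio was 1.35.

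In mural cells 7 of the 10 genes were above 1, with a median log2 ratio of 0.16 against 0.014 over all genes tested there. Dusp1, at 2.31 (1.80 to 3.01), and Zfp36, at 1.57 (1.31 to 1.88), passed 1.5-fold (5.38% of genes higher and 4.80% lower as background). Mural Jund and Jun were at 0.797 and 0.831, but the 2 LPS cells richest in each held 31.0% of the Jund and 29.4% of the Jun UMIs, and without the 2 richest cells of each library the ratios were 0.991 and 0.974. In endothelial cells 8 of the 10 genes were above 1, with a median log2 ratio of 0.40 against 0.057 over all genes tested there. Atf3, at 1.92 (1.48 to 2.51), Jun, at 1.68 (1.43 to 1.99), and Fos, at 1.53 (1.38 to 1.71), passed 1.5-fold, with 6.49% of genes higher and 8.07% lower as background. Fos was not past 1.5-fold under 6 alternatives, which gave 1.42 to 1.496, and Jun was at 1.26 as a mean over cells. A single endothelial cell held 18.2% of the UMIs of the 10 genes after CpG ODN and another 19.5% after LPS. Without the 2 cells with the most such UMIs in each library the endothelial summed ratio was 1.52. Mural markers were at 493 CPM in endothelial cells after CpG ODN and 3232 CPM after LPS, and their part in these ratios was not tested.

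In both lymphocyte classes the summed level was lower after CpG ODN. Of the 5 genes tested in B cells 4 were below 1, with a median log2 ratio of -0.45 against 0.026 over all genes tested there. Jund alone passed 1.5-fold, at 0.544 (0.491 to 0.604), with 5.64% of genes higher and 3.76% lower as background. Jund was found in 87.3% of B cells after CpG ODN and 98.6% after LPS, in 77.7% and 90.8% when thinned to 1500 UMIs, and the median B cell held 10.5 and 17.8 UMIs of it per 10000. The difference was therefore spread over the cells. B cell Junb was at 0.668 and Ier2 at 0.734, and Egr1 at 1.33 (0.874 to 2.07). With classes set cell by cell from 5 signature genes in place of clusters, the summed B cell ratio was 1.01. A separate cluster with both B cell and plasma cell markers, left unnamed, held 238 cells after CpG ODN and 4 after LPS and is not in these values.

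In T cells 3 genes held enough UMIs to be compared, and 2 of them, Fos and Jund, were past 1.5-fold lower after CpG ODN (5.77% of genes higher and 3.67% lower as background). The 80 T cells of the CpG ODN library held 28 UMIs of Fos and the 26 of the LPS library held 93, which gives a ratio of 0.167 (0.105 to 0.257). Of the 93 UMIs a single cell held 65, and 2 cells held 90.3%. Without the 2 T cells with the most UMIs of the 10 genes in each library the Fos ratio was 1.08, on few UMIs. Fosb, Jun and Zfp36 each held under 100 UMIs in T cells. Their ratios without those cells, 1.31, 3.06 and 1.47, are thus below the limit for a comparison. The 2 LPS T cells richest in Jun held 92.6% of its UMIs. Jund, found in 88.8% and 96.2% of T cells, was at 0.645 (0.524 to 0.794) with all cells. It was at 0.638 without the 2 T cells of each library with the most UMIs of the 10 genes. In T cells Jund was no longer past 1.5-fold when cells needed only 200 detected genes (0.708), as a mean over cells (0.680) and in cells with under 1% of epithelial marker UMIs (0.673), whereas in B cells it was past 1.5-fold under each alternative run.

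**Figure D3:**
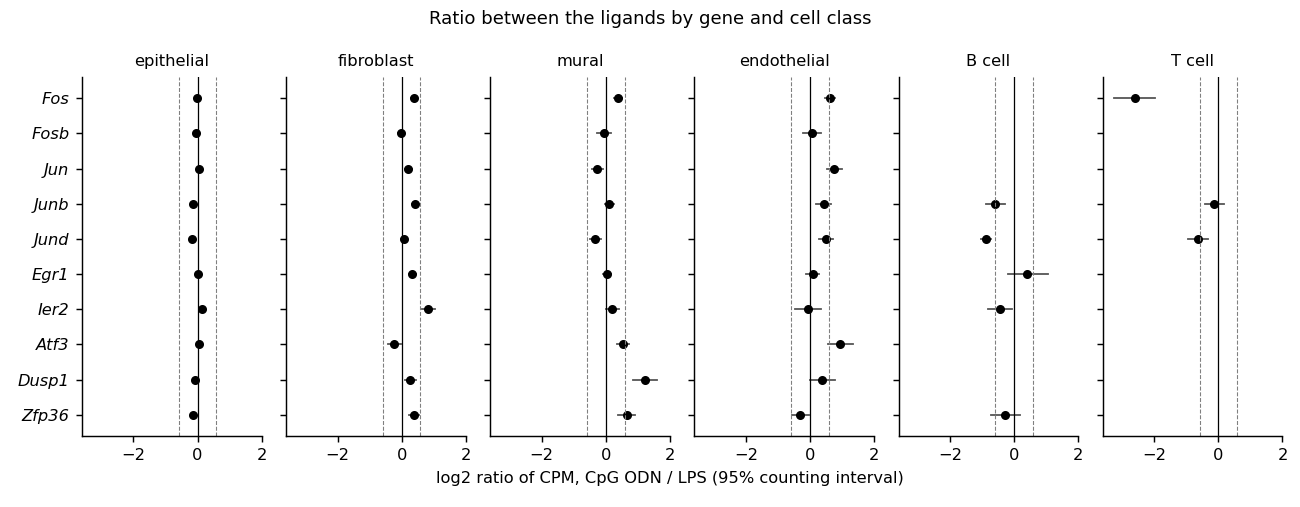
Log2 ratio of CPM (CpG ODN over LPS) of each gene with at least 100 UMIs in a class, as points, with 95% counting intervals as lines; dashed lines mark 1.5-fold and the solid line no difference. Epithelial points lie near the solid line, most fibroblast and endothelial points to its right, and Jund to its left in B and T cells.

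Both remaining classes had under 20 cells in at least 1 library, and their values are given without a comparison of ligands. The 62 myeloid cells after CpG ODN and 13 after LPS held 9721 and 8540 CPM of the 10 genes, with Fos at 1775 CPM (1314 UMIs) and 369 CPM (32 UMIs). The myeloid groups were not alike in make-up, because epithelial markers were at 53114 CPM after CpG ODN and 450 CPM after LPS, and myeloid markers at 8840 and 49982 CPM. Under 1% of epithelial marker UMIs was found in 30 of the 62 and in all 13 cells. These held 21631 and 8540 CPM of the 10 genes, with Fos at 3923 and 369 CPM. The 12 and 14 gland or simple epithelial cells held 12881 and 16378 CPM.

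Within the epithelium the level differed between clusters. The 11 epithelial clusters, formed without these genes, spanned 4.31-fold after CpG ODN and 4.00-fold after LPS. The lowest was cluster 1, to which no layer was given, at 2726 and 2618 CPM, and next came cluster 0, a basal cluster led by Col17a1, at 3658 and 2752 CPM. The highest was cluster 10, a spinous cluster led by Serpinb3a and Krt10, at 11750 and 10483 CPM. Clusters of the same layer did not share a level, since basal cluster 2 was at 6630 and 6316 CPM. Cluster 9, led within the epithelium by Wfdc18, Krt18 and Krt8 and given no layer, was at 10638 and 10058 CPM. The upper layer, cluster 13 with the cornified envelope gene Lor, was at 10939 and 9111 CPM and the dividing cluster 8 at 4309 and 5161 CPM. Atf3 had the widest epithelial span of the 10 genes, 17.6-fold after CpG ODN and 15.4-fold after LPS. Jund spanned 3.59-fold and 2.93-fold.

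In 8 of the 11 epithelial clusters the summed ratio was above 1, and in 3 it was below 1, with no interval that held 1. The ratios ran from 0.835 (0.814 to 0.857) in the dividing cluster 8 to 1.33 (1.29 to 1.37) in basal cluster 0, and clusters 5 and 12 were at 0.886 and 0.884. Cluster 9, among the highest in level, made up 5.06% of the epithelial cells in the CpG ODN library and 13.2% in the LPS library. With every cluster weighted alike in both libraries, by its number of cells, the summed epithelial levels were 6273 and 5903 CPM. The ratio was then 1.06 in place of 0.981, so the sign of the epithelial difference depended on the weights. The value of 0.981 weights clusters by UMIs, so the cluster mix and the kind of weight changed together. Their parts were not tested. Fos, Fosb, Jun, Egr1, Ier2 and Atf3 were each above 1 in 8 of the 11 clusters, Dusp1 in 7, and Junb, Jund and Zfp36 in 4.

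**Figure D4:**
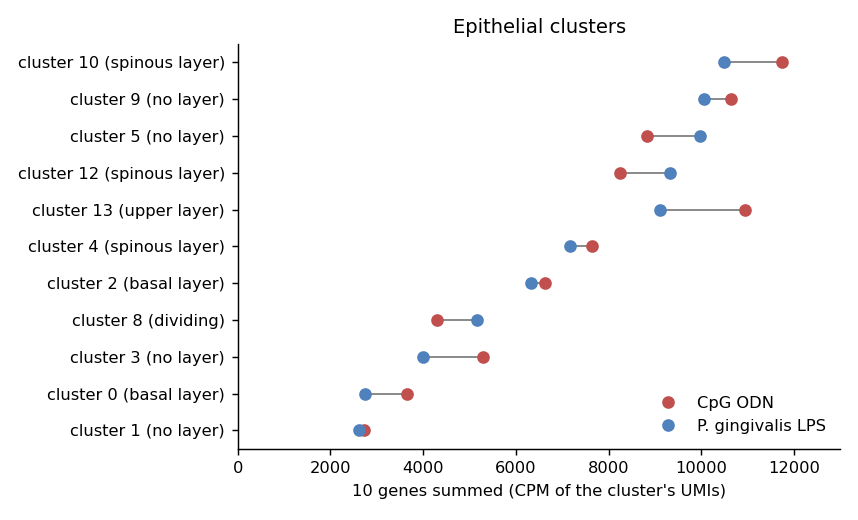
Summed level of the 10 genes (CPM) in 11 epithelial clusters, ordered by the LPS level, for CpG ODN (red) and LPS (blue). Clusters span 4.31-fold and 4.00-fold, which is wider than the distance between ligands in any cluster, and CpG ODN is the higher in 8 of 11.

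The LPS cells held more UMIs each, with medians of 26232 in epithelial cells against 13040.5 after CpG ODN, and the ratio moved with this depth. Among epithelial cells of under 5000 UMIs (136 and 13 cells) it was 0.581, and among those of 5000 to 10000 UMIs (1006 and 38 cells) 0.885. It was 1.25 (1.23 to 1.27) from 10000 to 20000 UMIs (1599 and 275 cells), 1.19 from 20000 to 40000 and 1.10 above 40000. At 10000 UMIs and more, the range with at least 190 cells in each library, the ratio was thus above 1.

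The 10 genes were high in the same epithelial cells. Cells were ranked by their Fos level inside each cluster and library, and the other genes were compared between the highest and the lowest 25%, of 940 cells each after CpG ODN and 250 each after LPS. Fos itself chose the cells and is not a result. Atf3 differed 8.66-fold after CpG ODN and 8.80-fold after LPS, from 99.5 to 861 CPM and from 98.8 to 870 CPM. Egr1 differed 8.06-fold and 8.03-fold, Fosb 6.52-fold and 7.93-fold, and Zfp36 6.22-fold and 8.06-fold. Dusp1 differed 6.03-fold and 5.38-fold, Jun 5.99-fold and 6.05-fold, and Junb 4.57-fold and 4.39-fold. Ier2, at 3.50-fold and 3.26-fold, and Jund, at 2.44-fold and 2.4-fold, differed least of the 9. Cells of 1 library are not replicates, so these folds are descriptions of 2 pools.

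Related genes were compared between the same cells as summed lists. The list of other immediate early genes differed 2.62-fold after CpG ODN and 2.52-fold after LPS, other DUSP phosphatases 1.78-fold and 1.57-fold and other AP-1 and ATF subunits 1.5-fold and 1.49-fold. Heat shock genes differed 1.20-fold and 1.26-fold, and housekeeping genes 1.08-fold and 1.13-fold. Median UMIs were 11562 in the lowest and 13706 in the highest 25% by Fos after CpG ODN, and 22310.5 and 26968.5 after LPS. Mitochondrial UMIs were lower in the highest 25%, at 4.28% against 5.19% after CpG ODN and 4.81% against 5.91% after LPS. The part of depth in these folds was not tested.

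**Figure D5:**
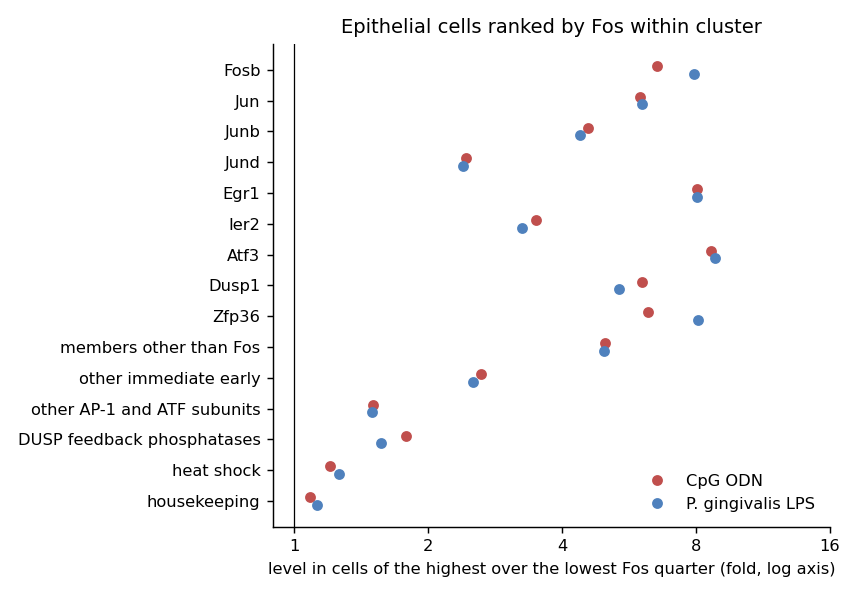
Fold difference (logarithmic axis) between epithelial cells in the highest and the lowest 25% by Fos within their cluster, for 9 genes and 6 summed gene sets, in CpG ODN (red) and LPS (blue) cells. The 9 genes run from 2.4-fold to 8.80-fold in both libraries together, while housekeeping genes lie near 1.

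Over all cells, related lists gave few genes past 1.5-fold between the ligands, and all of these were lower after CpG ODN. As background, 4.08% of all genes tested were at least 1.5-fold higher and 5.55% at least 1.5-fold lower. Of 50 other immediate early genes tested 5 were lower and 0 higher, with a median ratio of 0.897. The lowest were Plk3, a stress kinase, at 11.0 and 19.8 CPM (ratio 0.556), Tnfaip3, a brake on NF-kB signalling, at 19.4 and 34.5 CPM (0.562), and Errfi1, an inhibitor of the EGF receptor, at 21.2 and 36.4 CPM (0.582). Among 16 other AP-1 and ATF subunits Jdp2, a repressor of AP-1, was lower at 0.587. Among 10 other DUSP phosphatases Dusp4 was lower at 0.606, with a list median of 0.782. Of 18 heat shock genes Cryab was lower at 0.598, and the list median was 0.994. None of 23 housekeeping genes passed 1.5-fold, with a median of 0.976.

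The genes outside all fixed lists whose pattern was most like that of the 10 were Pgrmc1, Mib1, Dag1, Tubb6 and Klf9. Their Pearson correlations with the mean pattern of the 10 genes were 0.991, 0.979, 0.978, 0.972 and 0.970 over 12 sums, 6 classes in 2 libraries. The 10 genes themselves, which are part of that mean, ran from 0.966 for Fos to 0.443 for Jund. The 12 sums share their libraries and differ in depth, so these values describe the ranking only.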

How the data were processed

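Palatal gingiva was profiled by 10x Genomics droplet sequencing, with 1 library per ligand. The authors deposited UMI counts per gene and barcode, made with Cell Ranger version 4.0.0 according to the submitters' processing notes, which also name Seurat; the genome build is not given in the sources used here. The counts were used as deposited. The 10 genes and all gene lists were chosen with earlier results of these data known. Barcodes below 800 detected genes were left out, following the cutoff of the study. Clusters used 2000 variable genes, chosen by their scores summed over the 2 libraries, with 105 stress genes held out. They used 30 principal components, 15 neighbours and Leiden resolution 1.0 (leidenalg 0.10.2, igraph 0.11.9, scikit-learn 1.9.0), and were named from fixed markers. Clusters with as many leading genes of another class as of their own stayed unnamed, and an epithelial cluster led by markers of another class was given no layer. No doublet caller was run, and cells in the top 5% of UMIs were left out as an alternative.

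UMIs were summed per library and class and scaled to CPM. Levels have exact Poisson intervals, ratios exact conditional binomial intervals and shares Clopper-Pearson intervals, all at 95% and for counting error only (scipy 1.17.1). A count of 0 was taken to allow 3 UMIs. Genes with at least 100 UMIs in both libraries together were tested against 1.5-fold in place of a test, since no replicate exists. On simulated data the ratio intervals held the true ratio for 95.7% of 11440 genes in epithelial cells and 95.4% of 1064 in B cells. They lay above 1 for 97 of 100 genes raised 1.5-fold in epithelial cells and 76 of 100 in B cells. The simulation drew Poisson class totals, which is what the intervals assume. It held no variation between cells or mice, so it checks the calculation only. Named genes were all 10 members, up to 3 highest and 3 lowest genes past 1.5-fold over all cells from the other lists, and the 5 genes most alike in pattern. A further gene list is not reported here. Gene positions are from GENCODE M21 (GRCm38) and promoters from RefSeq (GRCm38.p6).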

Additional observations from a re-analysis of the deposited data

Results flagged for a closer look

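The summed ratio of the 10 genes was below 1 in B cells, 0.635, and above 1 in fibroblasts, 1.20. Groups of cells from the same 2 libraries therefore lay on opposite sides of 1, and the difference between them was not tested, because each ligand has 1 library.

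Barcodes under 800 detected genes, which no comparison used, also held the 10 genes. In the 857 such barcodes after CpG ODN and 135 after LPS in which hemoglobin made up under 50% of UMIs, the summed level was 4058 CPM after CpG ODN and 2452 CPM after LPS, counted among UMIs of genes other than hemoglobin. In the 474 and 604 barcodes of mostly hemoglobin RNA it was 3083 and 3602 CPM, of which Jund made up 2182 and 2623 CPM.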

How the results depend on the processing

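No paired analysis was possible because a ligand has 1 library only. The summed ratio over all cells, 0.962, was 0.940 as a mean over cells, 1.07 in cells of 10000 to 20000 UMIs, 0.976 with totals without mitochondrial, ribosomal protein and hemoglobin genes, and 0.923 without the top 5% of cells by UMIs. In cells of 10000 to 20000 UMIs the median log2 ratio was 0.16. The number of classes above 1, 3 of 6, was 5 of 7 with at least 1200 detected genes, 1 of 1 in cells of 10000 to 20000 UMIs (the epithelial class) and 1 of 4 with under 10% mitochondrial UMIs. Fewer classes held 20 cells under the last 2.

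Class ratios over all alternatives ran from 0.480 to 0.732 in T cells, 0.521 to 1.01 in B cells, 1.15 to 1.35 in fibroblasts, 1.11 to 1.16 in mural cells, 1.21 to 1.52 in endothelial cells and 0.936 to 1.25 in epithelial cells. Some directions turned, and the cause was not tested. Over all cells Fos was 1.01 as a mean over cells, 1.00 with the reduced totals and 1.12 in cells of 10000 to 20000 UMIs, where Dusp1 and Zfp36 were both 1.17. In epithelial cells of that depth the summed ratio was 1.25, Junb 1.13, Dusp1 1.25 and Zfp36 1.49, and with clusters weighted alike the summed ratio was 1.06. Epithelial Jun and Atf3 were 0.974 and 0.903 as means over cells, 0.975 and 0.950 without the top 5% of cells, and 0.980 and 0.970 with classes from signature genes. Epithelial Fosb was 1.02 with at least 1200 genes and 1.01 with the stress lists left in the clustering. With classes from signature genes the B cell summed ratio was 1.01, Junb 1.07 and Ier2 1.32, and fibroblast Atf3 was 1.20; with at least 200 genes fibroblast Atf3 was 1.05. Endothelial Zfp36 was 1.11 as a mean over cells. In T cells Zfp36, which held under 100 UMIs there, was 1.62 with under 10% mitochondrial UMIs. Without the 2 top cells, an alternative added after the data were seen, T cell Fos was 1.08. Fosb, Jun and Zfp36, each under 100 UMIs in T cells, were 1.31, 3.06 and 1.47. The alternatives with under 1% of epithelial marker UMIs and with clusters weighted alike were also added after the data were seen.

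Of the values for single genes and classes 716 moved by less than their counting interval, 135 moved further and 29 turned. Under 100 UMIs a gene was not compared, which left 5 of the 10 genes in B cells and 3 in T cells.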
